A study of Mus musculus with 6 samples.

Results

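Among 367 protein-coding mouse genes whose symbol is Zfp followed by digits, 70 had no H3K4me3 peak within 2 kb of either annotated gene end in neural stem and progenitor cells kept in water, and these 70 genes are described here. The members were chosen on the water H3K4me3 list itself, so their lack of peaks at the ends is a description and not a finding. The other 297 Zfp genes carried such a peak, and of all 21887 protein-coding genes examined 10056 did not. The cells were isolated from E13.5 mouse forebrain, expanded with epidermal and fibroblast growth factors, used at passage 2 to 3 and exposed for 24 h to water or to 10 mM crotonate, a short-chain acyl salt from which cells make crotonyl-CoA. CUT&Tag, which uses an antibody to direct a transposase to marked chromatin, was done for H3K4me3, H3K27me3 and normal rabbit IgG. Each antibody and treatment had 1 library (6 samples), and the IgG pair was not analysed here. No genotype or strain is given in the labels, and nothing in them says how many embryos or cultures a library came from. With 1 library a group, no difference below could be set against replicates, and no test was possible.

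H3K4me3 is the mark of active and poised promoters, and H3K27me3 is placed by Polycomb complexes over silent developmental genes. Zfp is the mouse name for zinc finger protein genes. Many of them encode DNA-binding repressors with tandem C2H2 fingers and a KRAB domain, which recruit the co-repressor TRIM28 and the H3K9 methyltransferase SETDB1 to transposable elements. Such genes lie in clusters that grew by local duplication, so neighbouring copies can be close to identical in sequence.

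The lists held 13221 H3K4me3 peaks after water and 16007 after crotonate, and 7643 and 15879 H3K27me3 peaks. Fragment totals are not stated, so depth is unknown, and the lists of a mark can differ in their power to call a weak peak. In both H3K4me3 lists, 8 of 8 neural progenitor markers carried the mark at an end or inside the gene, while 0 of 4 microglial markers did. Of the vessel markers only Kdr carried it, and of the fibroblast markers Pdgfra in both lists and Col1a1 after crotonate.

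The 70 genes fell into 3 sets. In 18 genes (25.7%) the water list held an H3K4me3 peak inside the gene, away from its ends, so the description as unmarked holds for their outer ends only. An internal water peak was found in 728 of the 10056 protein-coding genes lacking end H3K4me3 in water (7.24%), but the 70 genes are also longer, with a median span of 24.6 kb against 10.3 kb, and the part of length in this difference was not tested. In 11 genes (15.7%) an H3K4me3 peak was called after crotonate and none in water. In the remaining 41 (58.6%) neither list held an H3K4me3 peak at an end or inside. Of these, 40 had no peak of either mark in any of the 4 lists, and Zfp648 carried H3K27me3. The 40 are 57.1% of the 70, and 72.3% of the 10056 protein-coding genes (7274) were as bare.

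The upstream sequences of 6 genes are given as examples of start sites from these sets. Each is the run of 250 bases that ends just before a start site listed by RefSeq (GRCm38.p6), read 5′ to 3′ on the gene's own strand, with every CpG dinucleotide in capitals. Zfp790 (chr7:29815822-29816071, plus strand) is shown for the genes with an internal water peak, since it had the highest −log10 q of them in water. Zfp983 (chr17:21650361-21650610, plus strand) and Zfp456 (chr13:67375764-67376013, minus strand) had H3K4me3 at the start only after crotonate. Zfp984 (chr4:147809789-147810038, minus strand) also did, and it is set beside Zfp981 (chr4:146514670-146514919, plus strand), which had no peak and was the most similar of the 10 other members of its stretch with a listed start. Zfp966 (chr2:175931101-175931350, minus strand) is shown for a start sequence that is identical at Zfp967, also unmarked. Runs of 50 bases from it recur at further genes. Among these is Zfp970, which carried H3K4me3 at an end in water. The start sequence of Zfp970 is not the same, with 3 CpG in 300 bases against 5 at Zfp966.
Zfp790: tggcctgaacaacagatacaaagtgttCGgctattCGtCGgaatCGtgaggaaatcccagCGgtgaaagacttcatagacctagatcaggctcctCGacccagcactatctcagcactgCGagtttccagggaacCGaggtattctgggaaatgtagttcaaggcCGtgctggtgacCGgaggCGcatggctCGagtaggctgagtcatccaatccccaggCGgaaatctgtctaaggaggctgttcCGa
Zfp983: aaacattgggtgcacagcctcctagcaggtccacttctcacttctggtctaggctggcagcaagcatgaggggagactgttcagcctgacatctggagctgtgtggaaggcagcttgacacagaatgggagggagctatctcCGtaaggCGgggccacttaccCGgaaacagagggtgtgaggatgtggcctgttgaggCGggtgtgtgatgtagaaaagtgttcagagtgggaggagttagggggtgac
Zfp456: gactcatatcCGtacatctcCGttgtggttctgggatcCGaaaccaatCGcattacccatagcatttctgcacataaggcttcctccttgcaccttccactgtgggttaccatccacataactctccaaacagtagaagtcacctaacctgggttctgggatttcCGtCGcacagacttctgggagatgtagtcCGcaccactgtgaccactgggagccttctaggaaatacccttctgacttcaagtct
Zfp984: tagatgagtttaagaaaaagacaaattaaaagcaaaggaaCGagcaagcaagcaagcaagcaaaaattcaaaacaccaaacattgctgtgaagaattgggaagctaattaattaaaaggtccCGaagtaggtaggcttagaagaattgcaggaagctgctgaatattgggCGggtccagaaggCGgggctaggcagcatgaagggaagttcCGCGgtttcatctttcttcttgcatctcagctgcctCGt
Zfp981: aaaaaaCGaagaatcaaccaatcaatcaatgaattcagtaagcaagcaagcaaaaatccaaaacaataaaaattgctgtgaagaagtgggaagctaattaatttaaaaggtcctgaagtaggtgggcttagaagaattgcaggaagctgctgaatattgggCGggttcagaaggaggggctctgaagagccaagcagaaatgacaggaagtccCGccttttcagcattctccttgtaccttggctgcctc
Zfp966: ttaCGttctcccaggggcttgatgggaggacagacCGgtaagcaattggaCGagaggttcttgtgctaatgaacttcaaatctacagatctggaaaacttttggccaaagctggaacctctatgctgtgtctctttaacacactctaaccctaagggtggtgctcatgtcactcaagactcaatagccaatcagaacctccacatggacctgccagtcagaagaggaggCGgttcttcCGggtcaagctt
The Zfp790 stretch holds 14 CpG. Those of Zfp983, Zfp456 and Zfp984 hold 4, 7 and 7, and those of Zfp981 and Zfp966 hold 3 and 5.

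The first question was whether the 18 genes with an internal peak were marked at a start site that the outer ends miss. RefSeq start sites were listed for 15 of the 18, and in 14 of these the strongest internal water peak lay over a listed start. Zfp13 was the exception, with its strongest peak 12669 bp from the listed start. The same count was not made for other protein-coding genes with an internal water peak. This position is therefore not read as a trait of these genes. The listed start nearest to the peak lay a median of 4.66 kb (0.268 to 21.9 kb) inside the outer 5′ end of the gene. The lowest value is that of Zfp13, and in the 14 genes whose peak covered the start the lowest was 2.54 kb, at Zfp59. Since the start was picked by the peak, this distance is a description. Zfp708, Zfp791, Zfp217 and Zfp558 each had 2 listed starts, and in Zfp708 and Zfp791 the other one was the outer 5′ end itself. Zfp458, on chromosome 13 from 67225137 to 67278498, is an example: its peak covered 67268530 to 67269376 in water and 67268448 to 67269688 after crotonate, over a start listed at 67268994, 9.50 kb inside the outer end. For Zfp831, Zfp469 and Zfp934 no start was listed, so the position of their peaks relative to a start is not given.

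**Figure D1:**
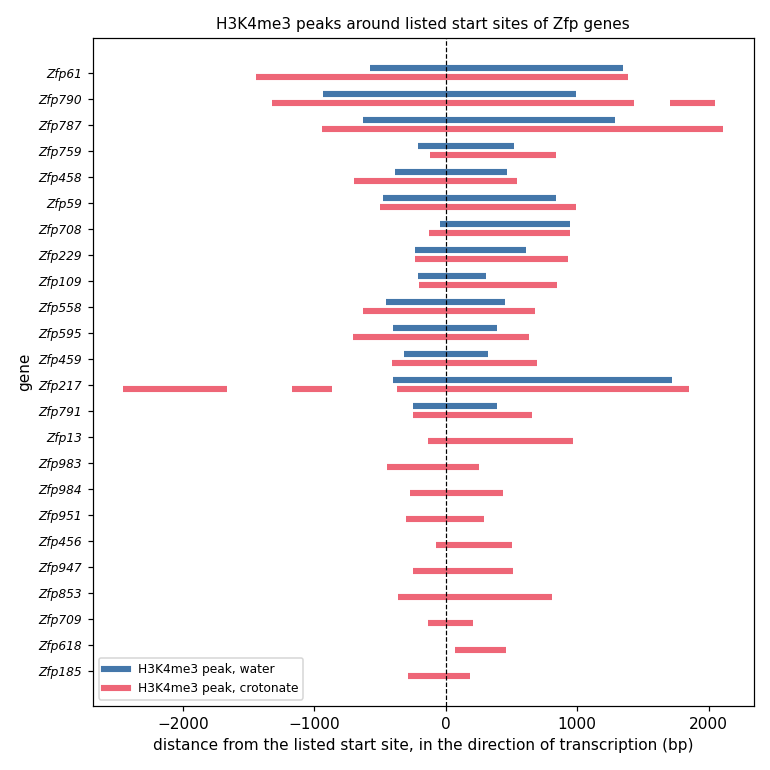
H3K4me3 peaks of 24 Zfp genes drawn as bars by their distance in bp from the nearest start site listed by RefSeq, water in blue and crotonate in red. In 14 genes a bar lies over the start in both lists, and the other 10 have bars of the crotonate list only, among them Zfp13, whose internal water peaks lie farther away than the 3000 bp drawn.

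The internal peaks were of moderate strength. In water Zfp790 had the strongest, with a −log10 q of 61.1 and an authors' fold enrichment of 20.2 in water, and 120 and 31.9 after crotonate. A second internal peak of Zfp790 measured 911 bp in water and 925 bp after crotonate. Zfp59 had a −log10 q of 51.4 in water and 54.4 after crotonate, with peaks of 1316 and 1491 bp. At Zfp787 the peak measured 1918 bp in water and 3056 bp after crotonate, with −log10 q of 46.2 and 81.6. These 3 genes lay at percentiles 62.1 to 79.8 of the water list by −log10 q. After crotonate the strongest was Zfp61, with 2831 bp, a fold enrichment of 43.0 and a −log10 q of 125, against 1926 bp, 11.9 and 35.4 in water, on a peak that also reached an end of Zfp94. The weakest of the 18 in water was Zfp469, whose human counterpart is mutated in a disorder of a brittle cornea, with a peak of 464 bp, a fold enrichment of 5.84 and a −log10 q of 8.73 in water. Over the 18 genes the median percentile in the water list was 31.4 (14.2 to 79.8), so these peaks were mostly below the middle of that list. Their fold enrichments ran from 5.84 to 25.5 in water, with a median of 11.3 against 14.3 over the whole list, and from 4.43 to 43.0 after crotonate. Of the other strong ones, Zfp229 measured 843 bp in water and 1171 bp after crotonate, and Zfp934 measured 538 and 765 bp.

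At all 18 genes the strongest internal water peak had a counterpart after crotonate. The mark was wider there at 17 of the 18 genes, beside 94.5% of the 12093 H3K4me3 peaks that paired 1 to 1 between the lists, so the share is close to the background. The median ratio of crotonate to water width was 1.43 (0.632 to 2.16), and over all paired peaks it was 1.24. The 2 peaks narrowest in water had the largest ratios: Zfp469 went from 464 to 1001 bp and Zfp109 from 517 to 1053 bp. Zfp831 was the exception. Its water peak of 1047 bp corresponded to 2 crotonate peaks of 290 and 372 bp, with a −log10 q of 12.7 in water and 3.73 at most after crotonate. Zfp217, which encodes a transcriptional co-repressor linked to breast cancer in humans, kept a peak of 2130 bp in water and 2220 bp after crotonate and had additional crotonate peaks of 305 and 798 bp upstream. Peak width depends on depth, which is unknown here, and its part in these ratios was not tested.

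Of the 18 genes, 5 lie within the same stretch of chromosome 13, from Zfp708 to Zfp459 (67069398 to 67443302), together with Zfp456 and 4 Zfp genes that carried H3K4me3 at an end. Zfp708 encodes a repressor of an endogenous retroviral repeat. The water peaks of these 5, Zfp708, Zfp759, Zfp458, Zfp595 and Zfp459, measured 992, 730, 847, 793 and 638 bp. Their crotonate peaks measured 1073, 960, 1241, 1338 and 1099 bp, each wider than in water. The stretch held 11 H3K4me3 peaks in water and 12 after crotonate within 0.374 Mb, or 29.4 and 32.1 peaks per Mb, against 4.91 and 5.95 over all chromosomes. It also held 13 protein-coding genes in that length, beside 21887 in 2691 Mb over all chromosomes, and the part of gene density was not tested. Its edges are those of genes set apart by an internal water peak, so the rates follow in part from this choice. No H3K27me3 peak lay in the stretch in either list. Over all chromosomes there were 2.84 per Mb in water and 5.90 after crotonate, so in 0.374 Mb nothing is read from this lack.

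The second comparison concerned H3K4me3 gained at the gene ends after crotonate. A peak reached an end in the crotonate list at 11 of the 70 genes (15.7%): Zfp983, Zfp114, Zfp951, Zfp456, Zfp13, Zfp947, Zfp853, Zfp575, Zfp709, Zfp618 and Zfp185. Over all protein-coding genes that lacked H3K4me3 at their ends in water the share was 9.10% (915 of 10056), and over all 21887 genes 4.18%. Since the rule required a lack of the mark in water, only gains were possible, and nothing is read from the difference in shares. In 11 of 11 the gained peak overlapped no water peak, against 841 of the 915 gains over all genes (8.36% of the 10056). With windows of 1 kb and 5 kb some gained peaks did overlap a water peak.

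Zfp983 had the strongest gain. It lies on chromosome 17 from 21650572 to 21664966, and no peak of either mark was listed at its ends or inside in water. After crotonate an H3K4me3 peak covered 21650162 to 21650864, over the start whose upstream sequence is printed above, with a fold enrichment of 14.3 and a −log10 q of 25.8. Zfp114, on chromosome 7, had a peak of 501 bp with a fold enrichment of 10.4 and a −log10 q of 16.5 at its low-coordinate end. Its strand was not in the table of starts. Zfp951 on chromosome 5 had a peak of 591 bp with a −log10 q of 13.9, and Zfp456 one of 577 bp with 11.6. These 4 peaks had no counterpart in water, and none of them reached an end of another protein-coding gene. The weakest gains were at Zfp709 (344 bp, −log10 q 3.39), Zfp618 (384 bp, 3.01) and Zfp185 (472 bp, 2.16). Zfp185 encodes a LIM domain protein of the actin cytoskeleton, so its name does not place it among the DNA-binding repressors.

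Where the strand was known, the gained peak lay at the 5′ end in 9 of 9 genes. It covered a listed start in 8 of the 9, and at Zfp618 it began 72 bp downstream. No such count is given for the other genes with a gain, so this position is not read as a trait of these 9. The gained peaks had a median length of 577 bp (344 to 1173), beside 469 bp over all 3371 crotonate H3K4me3 peaks without a water counterpart. Their median −log10 q was 8.08, against 7.45 over the 841 genes with such a gain and 57.5 over the whole crotonate list. All 11 lay below the middle of that list, at percentiles 2.56 to 31.9. Of these peaks 3 also reached the end of another protein-coding gene. These were Ethe1, which encodes a mitochondrial sulfur dioxygenase, for Zfp575, Gm5373 for Zfp709, and Zscan10, a zinc finger gene of pluripotent cells, for Zfp13. A peak shared in this way cannot be assigned to 1 gene.

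Zfp13 combined both patterns. Its internal peaks measured 1948 and 646 bp in water and 2110 and 1060 bp after crotonate. The end peak of 1105 bp, with a fold enrichment of 7.58, was called after crotonate only, over the listed start. Zfp984 was the only member of the chromosome 4 stretch described below with H3K4me3. A crotonate peak of 709 bp with a fold enrichment of 10.3 and a −log10 q of 15.2 covered its listed start, which lies 2.44 kb inside the outer end, so it is not counted among the 11. With lists of equal length, which drops the weakest crotonate peaks, 7 of the 11 gains were left: Zfp456, Zfp983, Zfp947, Zfp13, Zfp951, Zfp853 and Zfp114.

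**Figure D2:**
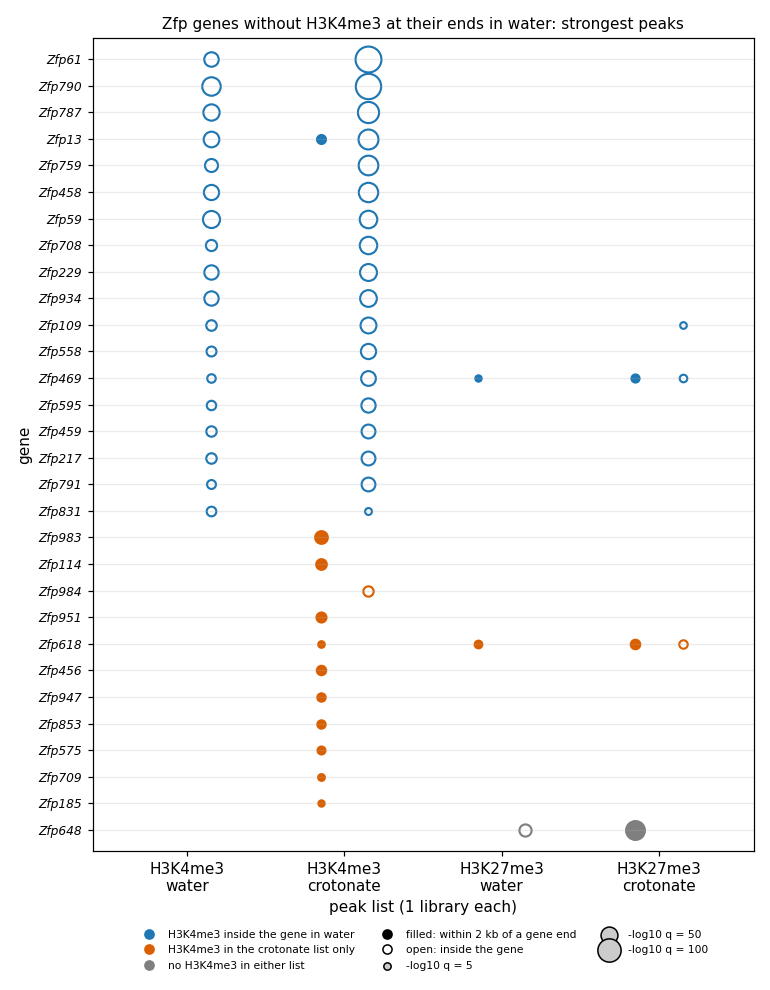
Strongest peak in each of the 4 lists for the 30 Zfp genes with any peak; the area of a circle grows with −log10 q, filled circles are peaks within 2 kb of an end and open circles peaks inside the gene. Blue genes have open circles in both H3K4me3 lists, and Zfp13 also has a filled one after crotonate. Of the H3K4me3 lists, orange genes have circles in the crotonate list only (open for Zfp984). H3K27me3 appears at 4 genes, the orange Zfp618 among them.

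The third comparison concerned H3K27me3, which the rule did not use. It was found at 4 of the 70 genes, at an end or inside: Zfp648, Zfp618, Zfp469 and Zfp109. At an end it was called at 2 genes in water (2.86%) and 3 after crotonate (4.29%). Over all protein-coding genes that lacked end H3K4me3 in water the shares were 11.0% (1110 of 10056) and 15.2% (1529 of 10056). Among the 297 Zfp genes with H3K4me3 at an end it was 4 genes (1.35%) in each list. These were mostly different genes, since 3 of the 297 gained H3K27me3 at an end and 3 lost it (1.01% each). The difference between the groups of genes was not tested. A gain at an end was seen at 1 of the 70 genes, against 3.19% of all protein-coding genes and 4.30% of those without water H3K4me3. A loss was seen at 0 of the 2 genes that could lose it, beside 0.384% of all protein-coding genes and 4.06% of those with H3K27me3 in water.

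Zfp648 had the strongest H3K27me3 of the 70. It lies on chromosome 1 from 154201187 to 154213209. In water a peak of 1954 bp inside the gene covered 154203951 to 154205904, with a fold enrichment of 13.9 and a −log10 q of 23.2. After crotonate the peak covered 154201208 to 154206955, 5748 bp, with a fold enrichment of 25.6 and a −log10 q of 63.7, and thereby reached the window at the 5′ end. This is the 1 gain counted above, and it is a wider form of a peak present in water. No H3K4me3 was listed at the gene under either condition.

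At Zfp618, whose product partners with the hydroxymethylcytosine reader UHRF2, an H3K27me3 peak lay upstream of the start in both lists. It measured 1967 bp with a −log10 q of 5.99 in water and 2377 bp with 12.1 after crotonate. Further crotonate peaks of 416 and 963 bp lay inside the gene, downstream of the start. The gained H3K4me3 peak of 384 bp lay between the upstream and the downstream H3K27me3 peaks. Zfp618 was the only one of the 70 with both marks at its ends after crotonate. Its start sequence had 59 CpG in 300 bases, the highest count of the members.

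Zfp469 carried weak H3K27me3 near its high-coordinate end, 455 bp with a −log10 q of 2.37 in water and 1387 bp with 7.33 and 956 bp with 4.15 after crotonate, and 8 further short peaks inside the gene after crotonate only. Zfp109 had a single internal peak of 720 bp with a −log10 q of 3.21, after crotonate only.

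The 41 genes without H3K4me3 in either list were then examined. On chromosome 4, 14 lay between 145510759 and 147812229, namely Zfp990, Zfp980, Zfp987, Zfp600, Zfp992, Zfp981, Zfp993, Zfp978, Zfp991, Zfp988, Zfp982, Zfp985, Zfp979 and Zfp534. With Zfp984, all 15 Zfp genes of this stretch of 2.30 Mb were members. The stretch was cut at its outermost members, so this share and the lack of water peaks follow in part from its edges. Zfp933, within 100 kb beyond the upper edge, carried H3K4me3 at an end in water. The stretch held 0 H3K4me3 peaks in water and 2 after crotonate, 0.869 per Mb against 5.95 over all chromosomes. Of the 2 peaks, 1 was that of Zfp984. It held 0 H3K27me3 peaks in either list, against 2.84 per Mb in water and 5.90 after crotonate over all chromosomes. Mouse chromosome 4 holds KRAB zinc finger clusters whose deletion is known to release some retrotransposons.

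A further 6 lay on chromosome 2 between 175372034 and 177925650: Zfp968, Zfp965, Zfp966, Zfp967, Zfp973 and Zfp972. In that stretch of 2.55 Mb there were 4 H3K4me3 peaks in water and 6 after crotonate, 1.57 and 2.35 per Mb. None of these peaks lay at an end of the 6 genes or inside them. The stretch held 0 H3K27me3 peaks, against 2.84 per Mb in water and 5.90 after crotonate over all chromosomes. Zfp970, the other Zfp gene of the stretch, carried H3K4me3 at an end in water. This stretch too was cut at its outermost members. Beyond its upper edge lie Zfp971 and Zfp931, chained to Zfp972 by gaps of at most 100 kb, and both carried H3K4me3 at an end in water. Both stretches were singled out after their values were seen.

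**Figure D3:**
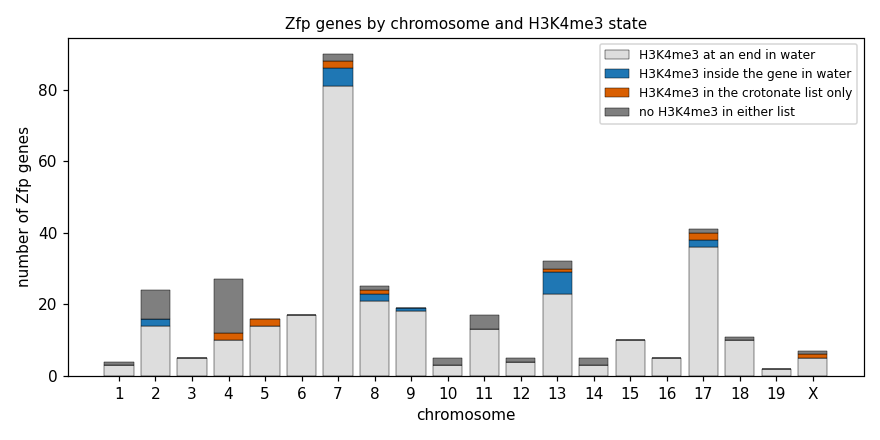
Number of Zfp genes on each chromosome, stacked by H3K4me3 state, with genes marked at an end in water in light grey. Unmarked genes (dark grey) make up 15 of the 27 Zfp genes of chromosome 4 and 8 of the 24 of chromosome 2, whereas chromosome 7 holds 90 Zfp genes of which 2 are unmarked.

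The other 21 unmarked genes were spread over 13 chromosomes. They were Zfp648, Zfp345, Zfp663, Zfp352, Zfp936, Zfp977, Zfp42, Zfp433, Zfp781, Zfp616, Zfp652, Zfp735, Zfp750, Zfp996, Zfp366, Zfp640, Zfp488, Zfp957, Zfp97, Zfp474 and Zfp92. Of 22 listed Zfp genes with a known role in a lineage or the germline, 21 were found by symbol and 7 were members. Of all 367 Zfp genes 19.1% were members. Of the 7, 0 gained H3K4me3 at an end, beside 9.10% of the 10056 protein-coding genes lacking it in water. With so few genes nothing is read from this. Zfp42 encodes REX1, a marker of pluripotent cells, and its nearest water H3K4me3 peak lay 1627 kb away, the largest distance of the 70. Zfp352, expressed in early cleavage embryos, was 907696 bp from one. Zfp488, a partner of Olig2 in oligodendrocyte formation, Zfp366, a factor of dendritic cells, and Zfp750, a driver of epidermal differentiation, had no peak of either mark. The remaining 2 of the 7 were Zfp831 and Zfp648, described above. Over the 41 unmarked genes the nearest water H3K4me3 peak was a median of 262 kb from an end (18.2 to 1627 kb), against 24.1 kb (2.77 to 230 kb) for the 11 genes marked after crotonate only and 4.89 kb (2.06 to 36.2 kb) for the 18 with an internal peak. The order of these distances follows from how the sets were made, on the same water list, and from the 2 kb rule, so nothing is read from it.

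Clustering of genes was compared next, with a cluster taken as Zfp genes at most 100 kb apart. By this measure 41 of the 70 genes (58.6%) lay in a cluster, and 171 of the 297 Zfp genes with H3K4me3 at an end (57.6%). The sets differed among themselves: 13 of 18 genes with an internal peak, 8 of 11 marked after crotonate only and 20 of 41 without H3K4me3 had a Zfp neighbour within 100 kb. Neighbours with other symbols, such as Rex2 or Gm genes, were not counted.

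The start sequences differed between the sets. CpG dinucleotides were counted in the 300 bases listed for each start, 250 before and 50 after it, and the start with the most was kept per gene. Starts were listed for 58 of the 70 genes. The median was 14 CpG (8 to 49) in 15 genes with an internal peak, 9 (6 to 59) in 9 genes marked after crotonate only and 5 (2 to 25) in 34 genes without H3K4me3. Among 247 Zfp genes with H3K4me3 at an end it was 16, and over all 17492 protein-coding genes with a listed start it was 15. Among 7920 protein-coding genes lacking end H3K4me3 in water it was 4, and among the 7242 lacking it in both lists it was 3. At least 10 CpG were found in 73.3% of the first set, 44.4% of the second, 23.5% of the third, 74.9% of the marked Zfp genes and 59.5% of all protein-coding genes. In the 7920 and 7242 genes just named the shares were 23.0% and 18.6%, so the unmarked Zfp genes were close to other genes lacking the mark. The ranges overlap. Among the genes marked after crotonate only, Zfp618, Zfp709, Zfp853 and Zfp185 had 59, 23, 22 and 20 CpG, while Zfp984, Zfp456, Zfp951, Zfp983 and Zfp947 had 9, 9, 8, 7 and 6. Zfp996, with 25, had the most of the unmarked genes.

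**Figure D4:**
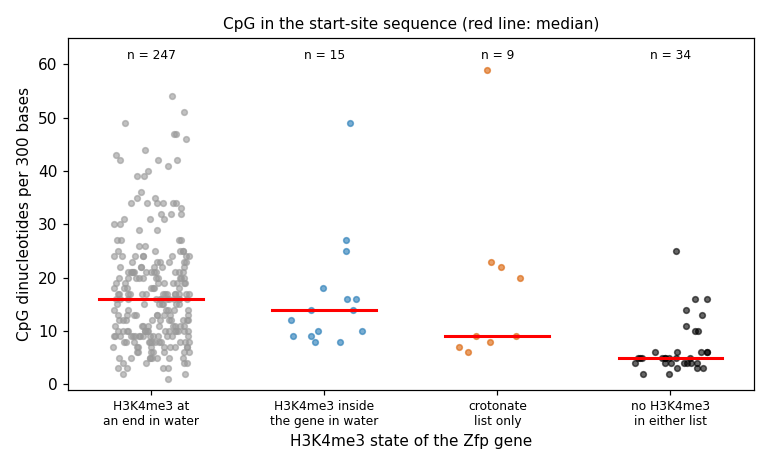
CpG dinucleotides in the 300 bases around the listed start of each Zfp gene, 1 point per gene, with the median as a red line. The medians are 16, 14, 9 and 5 from left to right, and the points of the 4 sets overlap.

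Gene copies were then looked for, because reads from identical copies cannot be assigned to 1 place. The listed 300 bases of each gene were split into all words of 50 bases, and a word counted as shared when it also occurred at the listed start of another gene elsewhere, on either strand. In 10 of the 34 unmarked genes at least 50% of the words were shared (29.4%), in 0 of the 15 genes with an internal peak, in 0 of the 9 marked after crotonate only and in 6 of 247 Zfp genes with H3K4me3 at an end (2.43%). Zfp966 and Zfp967 were identical over the 300 bases. For Zfp968, Zfp973 and Zfp781 too, 100% of the words occurred elsewhere. Words of Zfp966 occurred at 24 other genes in all, and Zfp972, in the same stretch, shared none. Zfp970, the Zfp gene of that stretch with H3K4me3 at an end in water, also shared 100% of its words. On chromosome 2 the start sequences of the 6 members had a median identity of 83.7% over 15 pairs (59.0 to 100%), on chromosome 4 of 70.0% over 55 pairs (44.8 to 94.8%), and on chromosome 13, where the genes were marked, of 49.7% over 15 pairs (47.8 to 62.5%). For the unmarked genes with shared words an absent peak is therefore uncertain. The part of read placement in their lack of peaks was not tested, and the authors' handling of reads with several placements is not stated in the labels or headers. Of the 34 unmarked genes, 14 shared no word with another gene at the start with the most CpG, Zfp42, Zfp352, Zfp488 and Zfp648 among them.

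Zfp984 and Zfp981, printed above, were 78.2% identical over their 300 bases, the closest match of Zfp984 among the members compared. Zfp984 shared 7.17% of its words with another gene and Zfp981 shared 0.797%. Zfp984 had 9 CpG and a crotonate H3K4me3 peak, and Zfp981 had 4 and none.

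**Figure D5:**
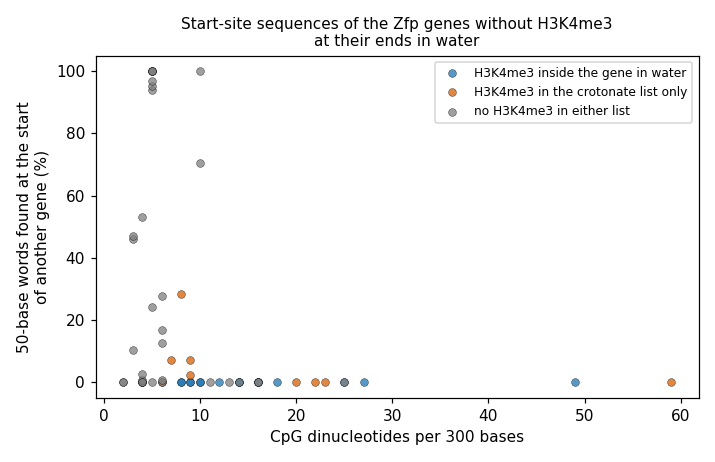
Percentage of 50-base words found at the start of another gene against CpG count, for the 58 Zfp genes with a listed start. Genes with an internal water peak (blue) all lie at 0%, and the points at 50% and above are unmarked genes (grey) with 4 to 10 CpG.

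The machinery through which KRAB zinc finger proteins act was marked under both conditions. Of 26 listed co-repressor genes 25 were found by symbol, and 25 of the 25 carried H3K4me3 at an end or inside in both lists, 23 of them at an end. Of all 21887 protein-coding genes 45.9% lacked it at the ends in water. At Trim28, the co-repressor bound by KRAB domains, the end peak measured 2.99 kb with water and 3.40 kb with crotonate. Setdb1, the H3K9 methyltransferase, had peaks of 0.378 and 0.581 kb. Dnmt1 and Dnmt3a, DNA methyltransferase genes, had H3K4me3 inside the gene and not at an end. None of the 25 gained or lost H3K4me3 at an end. Related zinc finger families were marked at an end in water in 9 of 11 Zscan, 10 of 11 Zkscan and 33 of 35 Zbtb genes. Among the 5 without it, Zscan10 gained it, on the peak shared with Zfp13.

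The rule's limit of 2 kb lay close to some genes. The members nearest to it were Zfp59, Zfp109, Zfp229, Zfp456 and Zfp787, with the nearest water H3K4me3 peak 2064, 2438, 2535, 2768 and 2787 bp from an end. Just inside it, and so not members, were Zfp93, Zfp428, Zfp541, Zfp583 and Zfp397, at 1996, 1951, 1839, 1466 and 1454 bp. Of the 5 members named, all but Zfp456 belong to the 18 genes with an internal peak.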

How the data were processed

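CUT&Tag peak lists of 4 libraries, H3K4me3 and H3K27me3 after water or crotonate, were used as deposited. The deposited pileup signal was not compared between lists. Significance is −log10 of p and q, and fold enrichment is a ratio of summit signal to local background, both by the authors' caller, per the file headers. Bowtie2 2.4.1, SAMtools 1.10, Picard 2.22.0, MACS2 2.2.7.1 and GRCm38 are named in the submitters' processing notes. The caller's settings, background library and duplicate handling were not given in the sources used here. Genes came from a RefSeq table of GRCm38.p6 and start sites with sequences from a RefSeq table of the same build, which held 305 of the 367 Zfp genes. A gene was marked where a peak overlapped, by at least 1 bp, the 2 kb either side of a gene end, and peaks inside the gene that reached no such window were counted as internal. Gained means listed with crotonate and absent from the water list. Overlaps were computed in Python 3.11.15 with numpy 2.4.6 and pandas 2.3.3, and identities by global alignment in Biopython 1.88. The interval code was tested on simulated data.

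No test was run, since each group is 1 library. The members and lists were chosen with earlier results of these data known. The named genes were those that gained H3K4me3, carried H3K27me3, had the strongest internal peaks, belonged to the lineage list or to the largest clusters, or lay nearest the 2 kb limit. The 3 sets, the stretches of chromosomes 2, 4 and 13, the counts of shared words and CpG, and the genes whose sequences are printed were chosen after values were seen. Alternatives were the window, thresholds on fold enrichment and −log10 q, lists of equal length, stricter overlap, other cluster gaps and, chosen after seeing the data, listed start sites and the absence of internal peaks.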

Additional observations from a re-analysis of the deposited data

How the results depend on the processing

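No paired analysis was possible because each group is 1 library. Of 57 alternative values, 41 lay within 1.5 times the reported one. With members found anew, 29 had an internal water H3K4me3 peak with a window of 1 kb and 9 with 5 kb, where 9 also had an internal crotonate peak. H3K27me3 at an end in water was found at 0 members and was gained at 4 with 1 kb, and was gained at 0 with 5 kb. At a fold enrichment of at least 5, or a −log10 q of at least 5, it was present in water at 1 member and gained at 2. With lists of equal length 7 members gained H3K4me3, all 7 on peaks without a water counterpart. With members found anew, 15 gained it at a window of 1 kb, 11 of them on such peaks. At 5 kb 11 gained it, 10 of them on such peaks. Windows at listed starts, an alternative added after the data were seen, gave 1 gene with water H3K27me3 and 2 that gained it, and 47 Zfp genes without H3K4me3 at a listed start in water, of which 12 gained it. Without the genes with internal water H3K4me3 peaks, also added later, 52 genes were left. Of these, 1 had an internal crotonate H3K4me3 peak (Zfp984) and 1 had H3K27me3 at an end in water. Zfp648, whose water H3K27me3 peak lay inside the gene, is among the 52 and outside that count. The count of 2 or 3 genes with H3K27me3 at an end is too small for any rate. Depth, unknown here, limits what an absent weak peak shows.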
